A study of Mus musculus with 10 samples.

Results

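Collagen genes were examined in mouse heart RNA as the 44 genes of the deposited table whose symbol follows the pattern of a collagen chain (Col, a type number, a, a chain number), out of 55858 genes. Of these, 26 had a mean TPM (transcript abundance per length, as a share of a total that is equal in every library) of at least 1 over the 10 libraries and are reported in full, and 18 lay under that limit. They were sorted by the known architecture of their proteins into 11 fibrillar genes, 8 basement membrane genes, 9 genes of the FACIT class (fibril-associated collagens with interrupted triple helices) and 16 other genes, of which 8, 7, 4 and 7 reached the limit.

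All mice carried the same genotype, MCM; Chmp4bF/F, in which Chmp4b, a gene of the ESCRT-III membrane-cutting machinery, is flanked for deletion. The cKO group (5 mice, replicates 1, 3, 5, 6 and 7) was injected under the skin with tamoxifen at 0.1 mg/g on 2 days in a row from postnatal day 0, and the control group (5 mice, replicates 4, 6, 8, 9 and 13) with corn oil. Hearts were taken at postnatal day 10. The series concerns the part of ESCRT in forming cardiac T-tubules, and no source used here gave the promoter that drives the Cre. Only the cKO group received tamoxifen, so the drug, Cre activation and the loss of Chmp4b cannot be told apart.

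Collagens are triple helices of alpha chains, each encoded by its own gene, so a collagen built from different chains needs its partner chains in the same cell. Fibrillar types I and III form the load-bearing fibres of the heart wall and type V sits inside those fibres and sets their width, while type IV forms the sheet-like network of the basement membrane around cardiomyocytes and capillaries. FACIT collagens decorate fibre surfaces, and type VI forms beaded filaments that link cells to the matrix. In the heart, fibroblasts are the main source of fibrillar collagen, and vessel and muscle cells contribute to basement membranes.

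As the total of TPM is fixed, each library's TPM was divided by a size factor that sets the median gene to the same level in every library, and the result is called scaled TPM below. Size factors were 1.2 to 1.39 in cKO and 0.702 to 0.848 in control libraries. The share of TPM from genes encoded by mitochondria was 35.5% to 41.5% in the cKO group and 50% to 59.4% in the control group. The median of all 13391 genes tested lay at 0.63 on the log2 scale as deposited and at 0.01 after scaling, so a collagen gene with an unchanged scaled level is higher as deposited. Read depth is unknown. Xist was abundant in cKO replicates 1, 5 and 7 and near 0 in the other libraries, which carried Ddx3y, so sex was partly tied to group. Chmp4b was 27.6 to 31.1 scaled TPM in cKO hearts and 51.1 to 69.3 in controls, without overlap, and as deposited 36.3 to 40.0 and 36.6 to 58.6 TPM, with overlap.

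Promoter sequences are shown for 4 collagen loci that stand for the contrasts described below: the most abundant fibrillar gene, the type V gene whose ratio to its partner was higher in cKO hearts, a pair of basement membrane genes that share 1 start region and were called higher together, and the 1 gene called lower. They come from RefSeq on GRCm38.p6 and are written 5′ to 3′ on the strand of the named gene, and they were trimmed to bases outside annotated exons. Capitals mark the CCAAT box, the GC box (GGGCGG) and the TATA motif TATAAA on either strand, so that a GC box on the other strand reads CCGCCC and a CCAAT box there reads ATTGG.
Col3a1 (chr1:45311288-45311537, plus strand): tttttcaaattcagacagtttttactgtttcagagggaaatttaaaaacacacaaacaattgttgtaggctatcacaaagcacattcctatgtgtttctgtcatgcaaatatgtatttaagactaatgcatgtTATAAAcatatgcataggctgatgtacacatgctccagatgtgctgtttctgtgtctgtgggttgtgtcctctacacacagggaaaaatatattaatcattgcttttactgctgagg
Col5a1 (chr2:27886175-27886424, plus strand): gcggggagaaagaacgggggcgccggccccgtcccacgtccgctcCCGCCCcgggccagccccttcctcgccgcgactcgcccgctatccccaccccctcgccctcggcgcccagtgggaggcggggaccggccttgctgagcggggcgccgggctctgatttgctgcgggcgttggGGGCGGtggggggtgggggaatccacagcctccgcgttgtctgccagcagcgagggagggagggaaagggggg
Col4a4 to Col4a3 (chr1:82586850-82586920, minus strand, the 71 bases between both starts): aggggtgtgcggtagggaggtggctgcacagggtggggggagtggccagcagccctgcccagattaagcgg
Col18a1 (chr10:77166549-77166780, minus strand): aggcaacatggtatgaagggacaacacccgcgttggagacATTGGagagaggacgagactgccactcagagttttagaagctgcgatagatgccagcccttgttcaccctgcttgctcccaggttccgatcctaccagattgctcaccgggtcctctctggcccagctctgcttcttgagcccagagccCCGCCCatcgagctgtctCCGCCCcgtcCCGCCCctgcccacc

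The Col3a1 stretch was poor in G and C (35.2%) and held 1 TATAAA, whereas the Col5a1 stretch was 76.4% G and C with 2 copies of GGGCGG. The Col18a1 stretch held 1 CCAAT and 3 copies of GGGCGG, and the Col4a4 to Col4a3 stretch held none of the motifs. Over windows from 250 bases before to 50 bases after each start, 20 of the 26 genes had an entry, with 22 windows. GGGCGG was found in 16 of these 22 windows (72.7%) and in 35.7% of all 32851 windows of the table. CCAAT was found in 8 (36.4%), against 37.4% of all windows. TATAAA was found in 1, that of Col3a1 (4.55%), against 13.6% of all windows. The windows of the table covered 27025 genes, whether or not they reached the TPM limit, so these shares compare unlike sets. A match describes letters only.

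Relative to the median gene, 22 of the 26 collagen genes were called higher in cKO hearts, 1 was called lower and 3 were not called (limma, adjusted p under 0.05 over all genes tested). Over all 13391 genes, 20.5% were called higher and 20.5% lower. The groups did not overlap for 18 collagen genes, each higher in cKO, against 15.5% of all genes higher and 15.4% lower without overlap. The median log2 fold change was 0.59 over the 26 genes. As deposited, 25 collagen genes were called higher and 0 lower, with a median of 1.27, against 75.7% of all genes higher and 3.42% lower, so most genes of any kind were called higher on that scale. The groups did not overlap for 24 of them as deposited, against 61.9% of all genes higher and 1.88% lower without overlap. Col9a2, Col12a1, Col4a3, Col11a1 and Col8a2 had a mean deposited TPM under 1 in controls and passed the limit through their level in cKO hearts. Among the 21 genes with a mean of at least 1 in each group, 18 were called higher and 1 lower (19.2% and 21.5% of the 12340 such genes), with a median of 0.56 and 14 without overlap, each higher (14.3% of such genes, and 16.1% lower). As deposited, 20 of the 21 were called higher (76.2% of such genes, and 3.23% lower) and 19 were without overlap (62.7% of such genes, and 1.8% lower).

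**Figure D1:**
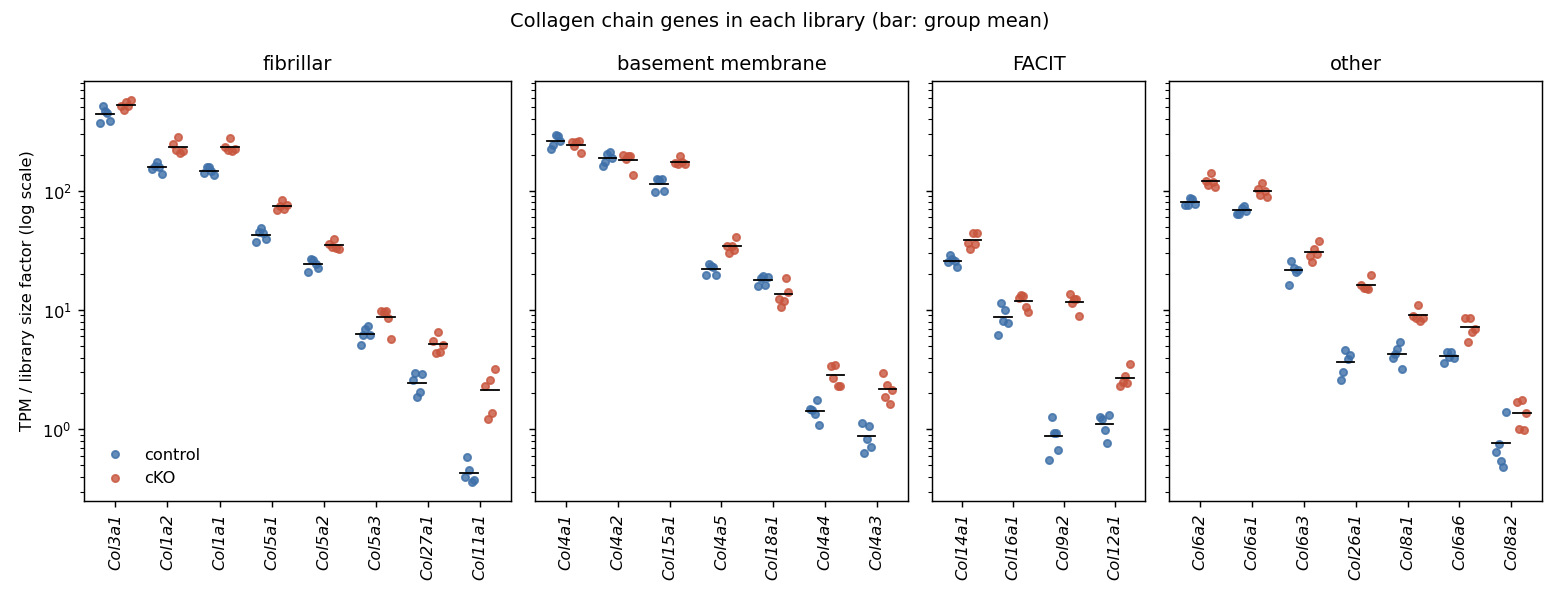
Scaled TPM (log axis) of the 26 collagen genes in each of the 5 control and 5 cKO libraries, by class, with bars at the group means. The points of Col9a2, Col26a1 and Col11a1 stand clear of each other by group, while those of Col4a1 and Col4a2 intermingle.

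All 8 fibrillar genes over the limit were called higher, with a median log2 fold change of 0.61 and a range of 0.28 to 1.09, and 6 of them showed no overlap. Over all genes tested, 20.5% were called higher and 15.5% were higher without overlap. Of the 8, Col11a1 passed the limit through its level in cKO hearts. Col1a1 (ENSMUSG00000001506.11, chr11:94936224-94953042, plus strand), which encodes the chain present in double copy in type I collagen, had scaled TPM of 231, 221, 275, 216 and 223 in cKO replicates 1, 3, 5, 6 and 7. In control replicates 4, 6, 8, 9 and 13 it was 141, 158, 157, 146 and 134. Every cKO heart was above every control heart, with means of 233 ± 23.7 and 147 ± 10.2 (SD, n = 5 each). The log2 fold change of Col1a1 was 0.66 ± 0.08 (SE, limma adjusted p = 4.68e-05), a ratio of means of 1.59.

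Col1a2 (ENSMUSG00000029661.17, chr6:4504814-4541544, plus strand), the partner chain of type I, was at 246, 221, 283, 207 and 213 scaled TPM in cKO and at 152, 162, 174, 159 and 139 in control hearts. The groups did not overlap, and the lowest cKO heart was replicate 6. Its log2 fold change was 0.56 ± 0.09 (SE, limma adjusted p = 0.000538), 1.49-fold between means of 234 ± 31.0 and 157 ± 13 (SD, n = 5 each).

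Col3a1 (ENSMUSG00000026043.19, chr1:45311538-45349706, plus strand), the single chain of type III collagen and the most abundant collagen transcript in both groups, was at 511, 475, 552, 514 and 573 scaled TPM in cKO hearts. Control hearts had 366, 512, 462, 449 and 384. Control replicate 6 stood above cKO replicates 1 and 3, so the groups overlapped. The log2 fold change of Col3a1 was 0.28 ± 0.10 (SE, limma adjusted p = 0.0373), from 435 ± 59.5 to 525 ± 38.4 (SD, n = 5 each). The call was lost when any 1 of cKO replicates 1, 5, 6 and 7 or control replicates 4, 9 and 13 was left out, with fold changes of 0.22 to 0.29 and limma adjusted p of 0.0542 to 0.0876. Without the 3 cKO libraries with Xist it was 0.20 (limma adjusted p = 0.334).

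Type V genes differed among themselves. Col5a1 (ENSMUSG00000026837.17, chr2:27886425-28039514, plus strand) encodes the chain found in nearly all type V trimers. It was at 68.3, 74.0, 83.1, 70.7 and 75.5 scaled TPM in cKO and at 37.1, 44.9, 48.6, 44.1 and 39.4 in control hearts. The gap between the groups was wide, with a log2 fold change of 0.78 ± 0.08 (SE, limma adjusted p = 1.93e-05). Col5a2 (ENSMUSG00000026042.17, chr1:45374321-45503282, minus strand), its usual partner and the neighbour of Col3a1 on chromosome 1, was at 36.0, 33.6, 39.6, 32.9 and 32.6 in cKO and at 20.9, 26.9, 26.4, 24.2 and 22.4 in control hearts. Its log2 fold change was 0.52 ± 0.08 (SE, limma adjusted p = 0.000442), also without overlap. Col5a3, the third type V chain, was at 9.74, 9.59, 9.90, 8.53 and 5.68 in cKO and at 5.05, 6.14, 6.90, 7.32 and 6.19 in control hearts. The value of cKO replicate 7 lay within the control range, and the log2 fold change of Col5a3 was 0.39 ± 0.14 (SE, limma adjusted p = 0.0445). Its call was lost without any 1 of 8 libraries, all but cKO replicate 7 and control replicate 9, at limma adjusted p of 0.0547 to 0.102.

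Col11a1 and Col27a1 were low in level and had the largest log2 fold changes of the 8 fibrillar genes over the limit. The fibrillar genes under the limit, Col11a2, Col24a1 and Col2a1, were not called when limma was fitted to all genes. Col11a1 (ENSMUSG00000027966.21, chr3:114030540-114220718, plus strand), a type XI chain best known from cartilage, was at 2.32, 1.23, 2.59, 1.38 and 3.21 scaled TPM in cKO hearts. In control hearts it was at 0.396, 0.584, 0.454, 0.364 and 0.376. The groups did not overlap, and the cKO hearts themselves ranged widely, with Xist-bearing replicates 1, 5 and 7 above replicates 3 and 6. The same order was seen for Col1a1, Col4a3, Col4a5, Col6a6, Col8a1, Col8a2, Col14a1, Col26a1 and Col27a1. It was not seen for the other collagen genes over the limit. The log2 fold change of Col11a1 was 1.09 ± 0.18 (SE, limma adjusted p = 0.000454), and 0.69 (limma adjusted p = 0.0103) without the cKO libraries with Xist, so its size moved with them. The pseudocount of 1 also lowers it, and with 0.1 it was 2.0 (limma adjusted p = 0.000236). Col27a1, another minor fibrillar gene, went from 2.47 ± 0.495 in control to 5.19 ± 0.872 in cKO hearts (SD, n = 5 each) without overlap, a log2 fold change of 0.84 ± 0.13 (SE, limma adjusted p = 0.000269).

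**Figure D2:**
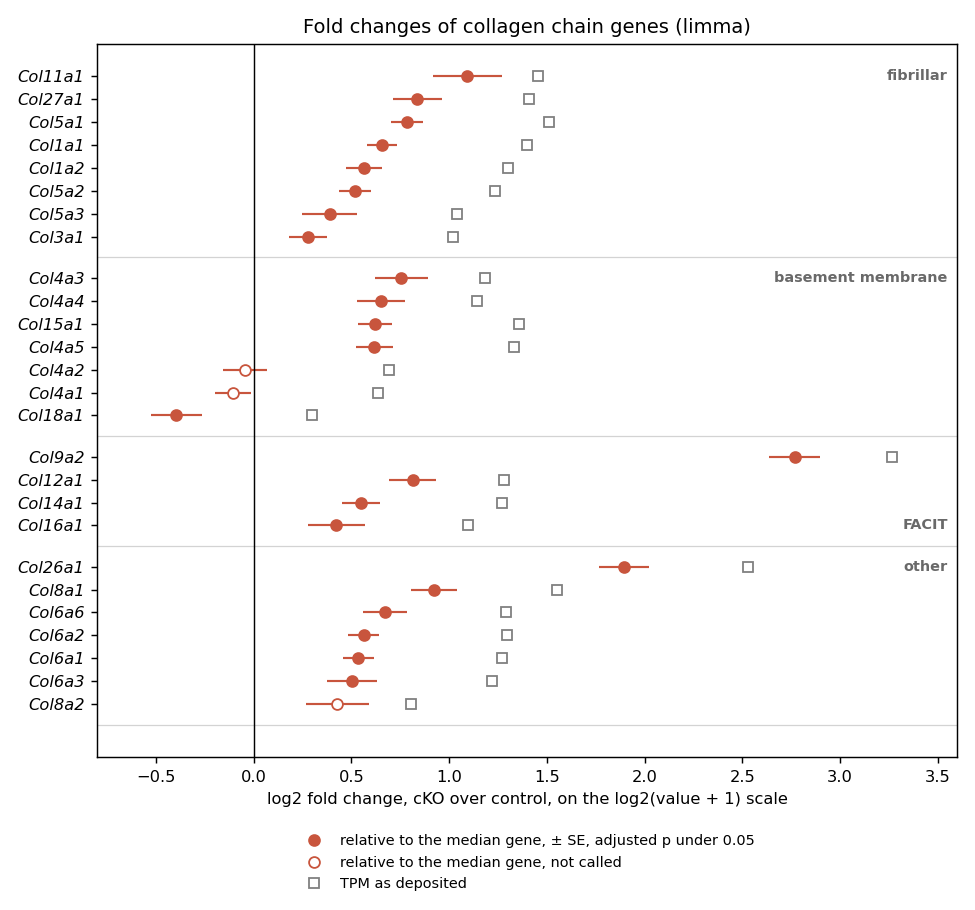
Log2 fold changes of cKO over control for the 26 collagen genes by class, relative to the median gene with SE (circles, filled where the limma adjusted p was under 0.05) and as deposited (squares). Col4a1, Col4a2 and Col18a1 lie left of 0 relative to the median gene and right of 0 as deposited, and Col9a2 and Col26a1 lie farthest to the right on both scales.

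Basement membrane genes split. Of the 7 over the limit, 4 were called higher (Col15a1, Col4a3, Col4a4 and Col4a5), 1 lower (Col18a1) and 2 were not called (Col4a1 and Col4a2), with a range of -0.40 to 0.76. Over all genes tested, 20.5% were called higher and 20.5% lower. Of the 7, Col4a3 passed the limit through its level in cKO hearts. Col4a1 (ENSMUSG00000031502.12, chr8:11198423-11312826, minus strand) and Col4a2 (ENSMUSG00000031503.14, chr8:11312805-11449287, plus strand) encode the chains of the common type IV network, and their annotated starts overlap by 22 bases. Col4a1 was at 255, 237, 256, 260 and 205 scaled TPM in cKO and at 223, 243, 292, 286 and 262 in control hearts. Its groups overlapped, with a log2 fold change of -0.10 ± 0.09 (SE, limma adjusted p = 0.396). Col4a2 was at 201, 183, 197, 195 and 136 in cKO and at 160, 174, 203, 210 and 188 in control hearts. It overlapped too, at -0.04 ± 0.11 (SE, limma adjusted p = 0.794), and cKO replicate 7 was the lowest heart for both genes. As deposited both were called higher, at 0.63 for Col4a1 and 0.69 for Col4a2, where the median gene was at 0.63. The size factors themselves differed by a mean of 0.74 on the log2 scale, cKO over control, and both genes lay under that.

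Col4a3 (ENSMUSG00000079465.9, chr1:82586921-82722059, plus strand) and Col4a4 (ENSMUSG00000067158.10, chr1:82448423-82586849, minus strand) encode chains that join with the Col4a5 chain in the denser type IV network known from kidney and lung. They start 71 bases apart in opposite directions, at the stretch printed above. Col4a3 was at 2.95, 1.85, 2.33, 1.62 and 2.13 scaled TPM in cKO and at 1.13, 0.634, 0.825, 1.07 and 0.706 in control hearts. Col4a4 was at 3.42, 2.69, 3.45, 2.31 and 2.32 in cKO and at 1.48, 1.47, 1.35, 1.77 and 1.09 in control hearts. Both pairs of groups were apart, and for both genes cKO replicates 1 and 5 were the highest hearts. The log2 fold change was 0.76 ± 0.13 for Col4a3 and 0.65 ± 0.12 for Col4a4 (SE, limma adjusted p = 0.000895 and 0.00121). With a pseudocount of 0.1 it was 1.23 for Col4a3.

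Col4a5 (ENSMUSG00000031274.17, chrX:141475385-141689234, plus strand) was at 34.7, 29.9, 34.3, 31.7 and 41.1 scaled TPM in cKO and at 19.5, 24.2, 23.5, 23.0 and 19.7 in control hearts. There was no overlap, and the log2 fold change was 0.62 ± 0.09 (SE, limma adjusted p = 0.00031). Col4a5 is X-linked, and cKO hearts with Xist were at 34.3 to 41.1 and those without at 29.9 to 31.7. Without the libraries with Xist the log2 fold change of Col4a5 was 0.47 (limma adjusted p = 0.0141). Col4a6, its neighbour 1308 bases away in the opposite direction, lay under the limit.

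Types XV and XVIII are related basement membrane collagens that carry heparan or chondroitin sulfate chains and release anti-angiogenic fragments. They went opposite ways relative to the median gene. Col15a1 (ENSMUSG00000028339.18, chr4:47208161-47313167, plus strand) was at 171, 168, 197, 172 and 169 scaled TPM in cKO and at 97.9, 124, 123, 124 and 99.7 in control hearts. The groups were far apart, at a log2 fold change of 0.62 ± 0.09 (SE, limma adjusted p = 0.000166). Col18a1 (ENSMUSG00000001435.16, chr10:77052178-77166548, minus strand), the source of endostatin, was at 12.3, 10.5, 11.9, 18.6 and 14.2 in cKO and at 15.8, 18.5, 19.4, 16.3 and 19.0 in control hearts. The other 4 cKO hearts lay under every control heart, and cKO replicate 6 lay within the control range. Its log2 fold change was -0.40 ± 0.13 after scaling (SE, limma adjusted p = 0.031) and 0.30 as deposited (limma adjusted p = 0.0524), so the direction depended on the scale. The call for Col18a1 was lost without any 1 of cKO replicates 1, 3 and 5 or control replicates 6, 8 and 13, at -0.38 to -0.32 and limma adjusted p of 0.0601 to 0.072.

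All 4 FACIT genes over the limit were called higher, against 20.5% of all genes tested. Of these, Col9a2 and Col12a1 passed the limit through their level in cKO hearts. Col9a2 (ENSMUSG00000028626.6, chr4:121039385-121055322, plus strand), a chain of the cartilage collagen type IX, had the widest fold of the 26 genes. It was at 13.7, 11.5, 12.5, 12.3 and 8.88 scaled TPM in cKO and at 0.554, 1.27, 0.939, 0.939 and 0.678 in control hearts. The lowest cKO heart, replicate 7, was several times the highest control heart. The log2 fold change of Col9a2 was 2.77 ± 0.13 (SE, limma adjusted p = 8.83e-08) and the ratio of means was 13.4. Its partner chains lay under the limit, Col9a1 at a mean scaled TPM of 0.250 in cKO and 0.165 in control hearts, and Col9a3 at 0.224 and 0.309. Neither partner gene was called when limma was fitted to all genes.

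Among cartilage markers, Sox9, a master regulator of chondrocytes that other cell types express as well, went from 2.10 ± 0.265 in control to 6.06 ± 1.02 scaled TPM in cKO hearts (SD, n = 5 each, limma adjusted p = 9.36e-06). The other 7 of the 8 cartilage markers lay under the limit, among them the aggrecan gene Acan, at means of 0.467 in cKO and 1.18 in control hearts. Acan was called lower relative to the median gene when limma was fitted to all genes (adjusted p = 0.013). The summed cartilage marker level was 6.54 to 9.29 in cKO and 3.68 to 5.31 in control hearts with Sox9, and 1.18 to 2.45 and 1.35 to 3.19 without it. The part of Sox9 in the Col9a2 result was not tested.

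Col14a1, the main FACIT transcript of the heart here, was at 36.2, 32.3, 44.1, 35.6 and 44.3 scaled TPM in cKO and at 25.3, 28.8, 26.7, 25.7 and 22.8 in control hearts. There was no overlap, at a log2 fold change of 0.55 ± 0.10 (SE, limma adjusted p = 0.000861). Col12a1, its relative in dense connective tissue, was at 2.32, 2.49, 2.79, 2.45 and 3.53 in cKO and at 1.26, 1.21, 0.985, 0.774 and 1.33 in control hearts. It was also apart, at 0.81 ± 0.12 (SE, limma adjusted p = 0.000221), and at 1.2 with a pseudocount of 0.1. Col16a1 overlapped, from 8.71 ± 2.05 in control to 11.9 ± 1.65 in cKO hearts (SD, n = 5 each), at 0.42 ± 0.15 (SE, limma adjusted p = 0.0362). The call for Col16a1 was lost without any 1 of cKO replicates 1, 3 and 5 or control replicates 4, 8 and 13, at limma adjusted p of 0.0726 to 0.0813.

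Of the 7 other genes over the limit, 6 were called higher, against 20.5% of all genes tested, and Col8a2 was not. Col6a1 (ENSMUSG00000001119.8, chr10:76708792-76726168, minus strand) and Col6a2 (ENSMUSG00000020241.14, chr10:76595762-76623630, minus strand) lie near each other on chromosome 10 and encode the short chains of type VI microfibrils. Col6a1 was at 103, 92.1, 116, 99.2 and 88.5 scaled TPM in cKO and at 64.0, 64.2, 71.5, 74.5 and 67.0 in control hearts. Col6a2 was at 120, 110, 141, 119 and 108 in cKO and at 76.3, 75.8, 86.5, 85.5 and 78.0 in control hearts. Both were without overlap and moved by nearly the same amount, 0.54 ± 0.08 for Col6a1 and 0.56 ± 0.08 for Col6a2 (SE, limma adjusted p = 0.000246 and 0.000167). Col6a3, the long type VI chain, was at 28.6, 25.3, 32.6, 29.4 and 38.2 in cKO and at 16.3, 25.9, 22.5, 20.9 and 21.6 in control hearts. Control replicate 6 stood just above cKO replicate 3, and the log2 fold change was 0.51 ± 0.13 (SE, limma adjusted p = 0.00789). Without the cKO libraries with Xist, Col6a3 was at 0.35 (limma adjusted p = 0.148). Col6a6, an alternative long chain, went from 4.11 ± 0.365 in control to 7.21 ± 1.33 in cKO hearts (SD, n = 5 each) without overlap, at 0.67 ± 0.11 (SE, limma adjusted p = 0.000608).

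Col26a1 (ENSMUSG00000004415.16, chr5:136741759-136883209, minus strand), a short secreted collagen with no settled role in the heart, was at 16.3, 15.2, 15.3, 14.9 and 19.8 scaled TPM in cKO and at 2.62, 3.05, 4.65, 3.91 and 4.21 in control hearts. The groups were far apart, and cKO replicate 7 was the highest heart. The log2 fold change of Col26a1 was 1.89 ± 0.13 (SE, limma adjusted p = 1.06e-06), a ratio of means of 4.42. It ranked 19 of 44 by level in control and 14 in cKO hearts, and Col9a2 went from 23 to 17.

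Type VIII collagen is a short-chain collagen of vessels and remodelling tissue, made from the chains of Col8a1 and Col8a2. Col8a1 was at 8.83, 8.61, 11, 8.04 and 8.62 scaled TPM in cKO and at 3.98, 4.27, 4.72, 5.38 and 3.19 in control hearts. No control heart reached the cKO range, at a log2 fold change of 0.92 ± 0.12 (SE, limma adjusted p = 8e-05). Col8a2 was at 1.69, 1.02, 1.76, 0.995 and 1.37 in cKO and at 0.652, 0.760, 0.544, 0.485 and 1.40 in control hearts. Control replicate 13 lay within the cKO range, and the log2 fold change of Col8a2 was 0.43 ± 0.16 (SE, limma adjusted p = 0.0525), and 0.81 with a pseudocount of 0.1 (limma adjusted p = 0.0517).

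The 18 genes under the limit had mean TPM from 0.0113 to 0.901. The highest of them were Col28a1, Col4a6 and Col11a2, none of which was called when limma was fitted to all genes. Col28a1 was at 1.5, 1.19, 0.409, 0.578 and 0.775 scaled TPM in cKO and at 0.813, 0.700, 0.755, 0.793 and 0.985 in control hearts. Its cKO hearts spread on both sides of the control range. Col4a6 went from 0.331 to 0.688 in control and from 0.552 to 0.771 in cKO hearts, and Col11a2 from 0.278 to 1.11 and from 0.244 to 0.807. In that fit 1 of the 18 was called higher and 0 lower, against 2.45% and 2.31% of the 15430 genes under the limit. It was Col22a1, a FACIT gene of tissue junctions, chosen here after its values were seen. Col22a1 was at 0.313, 0.257, 0.251, 0.187 and 0.372 in cKO and at 0.0729, 0.135, 0.00972, 0.0426 and 0.0501 in control hearts (limma adjusted p = 0.00231). With the read depth unknown, values this low have unknown counting error.

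Ratios of chains within a library do not depend on the scaling. Of 8 ratios compared, 4 differed between groups, each at an exact permutation p of 0.00794, the smallest that groups of 5 and 5 allow (adjusted p = 0.0159 over the 8). Col3a1 over Col1a1, the type III to type I ratio, was 2.21, 2.15, 2.01, 2.38 and 2.57 in cKO and 2.61, 3.25, 2.94, 3.07 and 2.86 in control hearts. Every cKO heart had the lower ratio, with a log2 difference of -0.38. Col5a1 over Col5a2 was 1.90, 2.20, 2.10, 2.15 and 2.32 in cKO and 1.78, 1.67, 1.85, 1.82 and 1.76 in control hearts. Here every cKO heart had the higher ratio, at 0.26.

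Col4a5 over Col4a1 was 0.136, 0.126, 0.134, 0.122 and 0.200 in cKO and 0.0873, 0.0995, 0.0805, 0.0806 and 0.0754 in control hearts. The groups were apart, at a log2 difference of 0.74, and cKO replicate 7, with the lowest Col4a1, had the highest ratio. Col12a1 over Col14a1 was 0.0705 ± 0.00740 in cKO hearts and 0.0434 ± 0.0109 in controls (SD, n = 5 each), at 0.73 without overlap. With 1 TPM added to both genes the difference was 0.01 (exact permutation p = 0.921), since Col12a1 is near that level. Col12a1 also passed the limit through its level in cKO hearts, so the choice of genes favoured a higher ratio there.

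The other 4 ratios did not pass. Col1a1 over Col1a2 was 1.00 ± 0.0469 in cKO hearts and 0.937 ± 0.0324 in controls (SD, n = 5 each, exact permutation p = 0.0476, adjusted 0.0762). Col4a1 over Col4a2 was 1.34 ± 0.0945 and 1.40 ± 0.0288 (SD, n = 5 each, exact permutation p = 0.238). Without cKO replicate 7, its log2 difference was -0.10 and passed (exact permutation, adjusted p = 0.0254). Col6a1 over Col6a2 was 0.834 ± 0.0148 and 0.849 ± 0.0169 (SD, n = 5 each, exact permutation p = 0.159). Col8a1 over Col8a2 spread from 2.29 to 11.1 in control hearts (exact permutation p = 0.746).

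**Figure D3:**
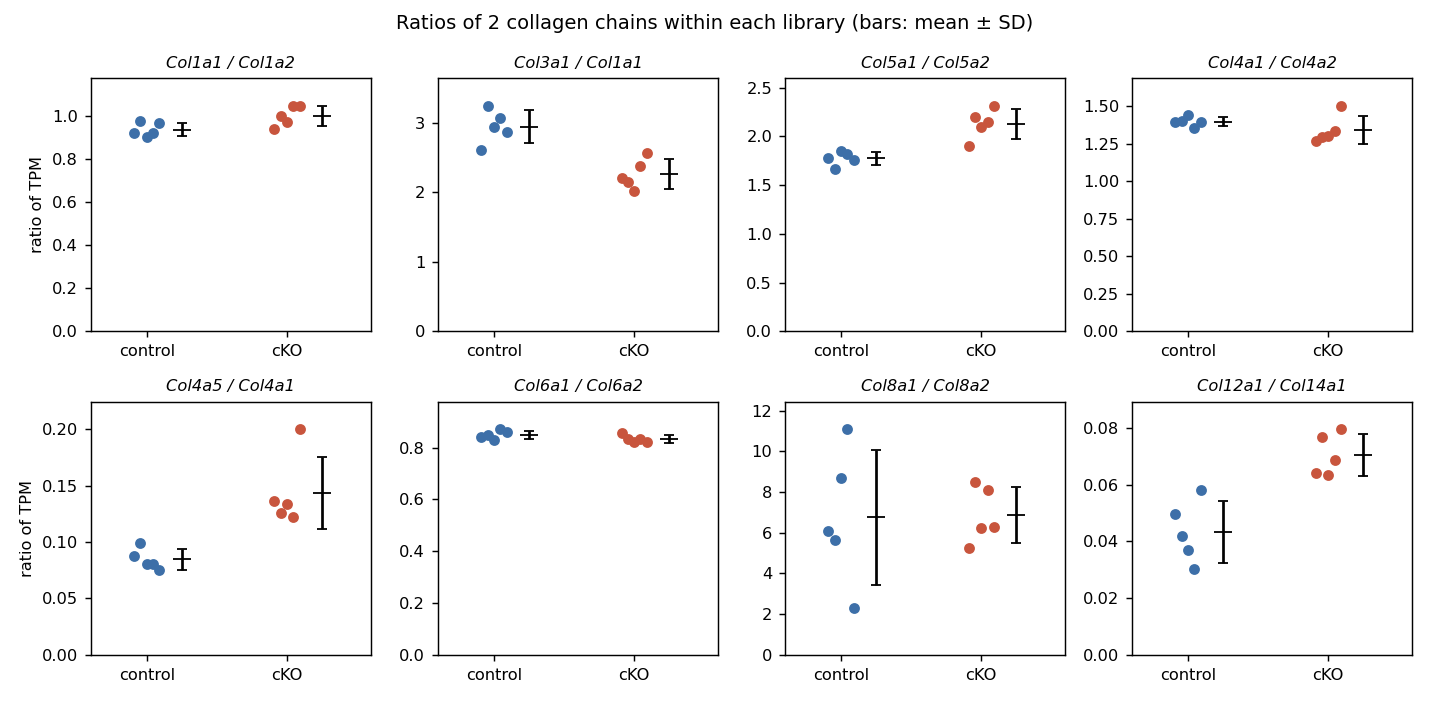
Ratio of TPM of 2 collagen genes within each library, for 8 ratios, with bars for the mean and SD of each group of 5. The groups are apart for Col3a1 over Col1a1, Col5a1 over Col5a2, Col4a5 over Col4a1 and Col12a1 over Col14a1, and overlap in the other 4 panels.

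The make-up of collagen RNA followed from these levels and is given as a description. Summed over the 44 genes, scaled collagen TPM was 2125 ± 140 in cKO (1995 to 2355) and 1644 ± 143 in control hearts (1450 to 1777; SD, n = 5 each). Type IV took 21.9% ± 1.93 of that sum in cKO and 28.8% ± 2.01 in control hearts, without overlap. Type I took 21.9% ± 1.2 and 18.6% ± 1.02, also without overlap, while type III took 24.8% ± 1.89 and 26.4% ± 1.87 and overlapped. Shares of a sum are tied to each other, so that a lower share of type IV goes with higher shares elsewhere.

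Smaller types shifted too. Type V took 5.55% ± 0.222 in cKO and 4.45% ± 0.107 in control hearts, type VI 12.1% ± 0.382 and 10.6% ± 0.516, and type XV 8.24% ± 0.176 and 6.91% ± 0.295 (SD, n = 5 each). Type XVIII went the other way, at 0.639% ± 0.161 and 1.09% ± 0.106. None of these 4 shares overlapped between groups. By class, fibrillar genes held 52.6% and 49.6% with overlap, and basement membrane genes 30.8% and 36.8% without. FACIT genes held 3.10% and 2.28% and the other genes 13.5% and 11.3%, each without overlap.

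**Figure D4:**
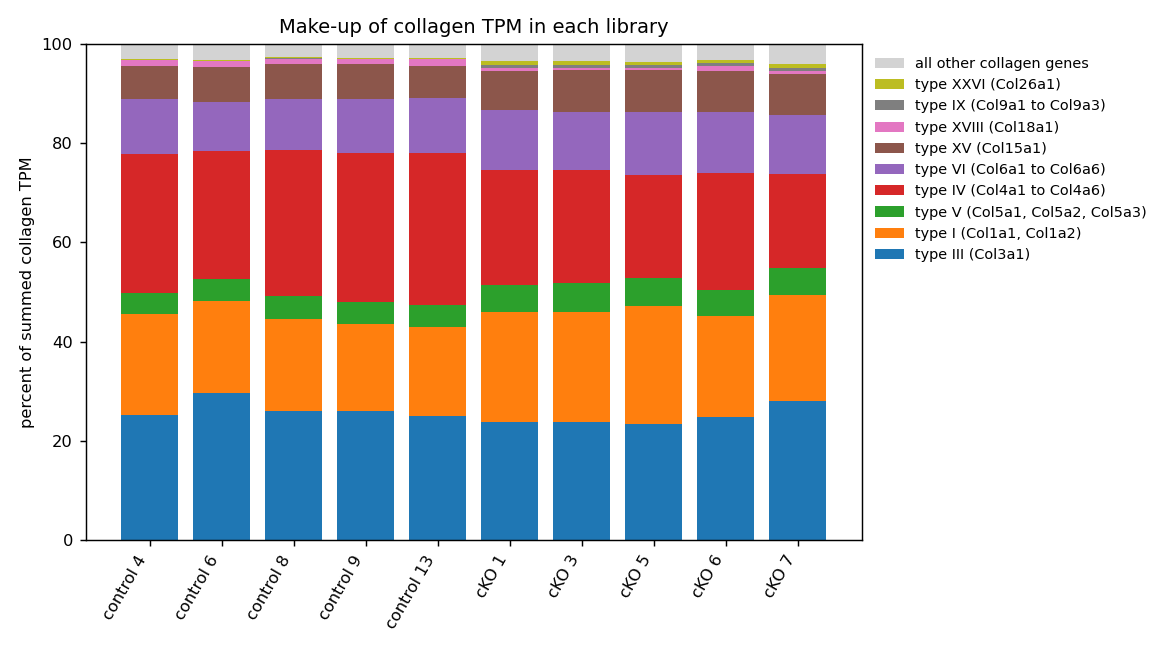
Percent of summed collagen TPM held by each collagen type in each of the 10 libraries. The band of type IV (Col4a1 to Col4a6) is thinner in the 5 cKO libraries (19.0% to 23.6%) than in the 5 control libraries (25.7% to 30.7%).

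Genes that modify, cross-link and bind collagen were counted on the same scale, and the counts stand beside 20.5% of all genes called higher and 20.5% lower (75.7% and 3.42% as deposited). P4ha3, Adamts14 and Lair1 had a mean deposited TPM under 1 in controls and were tested through their level in cKO hearts. Of 15 hydroxylation and glycosylation genes, 10 were called higher, 3 lower and 2 not, with a median log2 fold change of 0.45 (13 higher and 0 lower as deposited). Without P4ha3, 9 of 14 were called higher. P4hb, a subunit of prolyl hydroxylase, went from 80.6 ± 4.37 in control to 126 ± 7.81 scaled TPM in cKO hearts (SD, n = 5 each, limma adjusted p = 1.21e-05). Plod2, a lysyl hydroxylase, was at a log2 fold change of 0.74 (limma adjusted p = 2.43e-05), and P3h3, a prolyl hydroxylase family member, at 0.69 (limma adjusted p = 7.91e-05). Of 5 tested crosslinking genes, 4 were called higher and 0 lower. The lysyl oxidase gene Loxl2 went from 26.5 ± 3.45 to 59.2 ± 4.65 and the transglutaminase gene Tgm2 from 46.8 ± 4.72 to 108 ± 14.6 scaled TPM (SD, n = 5 each, limma adjusted p = 3.04e-06 and 5.01e-06). Loxl1 was at 0.34 (limma adjusted p = 0.00181).

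Secretion and processing genes were called in both directions. Of 6 chaperone and export genes, 2 were called higher, 2 lower and 2 not (6 higher as deposited). Creb3l1, a transcription factor of secretory cells, was at a log2 fold change of 0.67 and the export receptor gene Mia3 at 0.22 (limma adjusted p = 8.65e-05 and 0.0097). Mia2 was at -0.42 (limma adjusted p = 0.00485), and at 0.29 as deposited. Of 6 tested propeptide cleavage genes, 3 were called higher and 2 lower (4 and 1 as deposited), and 2 of 5 higher without Adamts14. Pcolce, an enhancer of C-propeptide removal, was at 0.68 and the N-proteinase gene Adamts2 at 0.35 (limma adjusted p = 1.56e-05 and 0.00715). Adamts3, another N-proteinase gene, went from 2.88 ± 0.475 in control to 1.01 ± 0.147 scaled TPM in cKO hearts (SD, n = 5 each, limma adjusted p = 4.55e-05) and was lower on both scales.

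Of 11 fibril-associated genes, 6 were called higher, 1 lower and 4 not (10 higher as deposited). Postn (periostin), Bgn (biglycan) and Fn1 (fibronectin) were at log2 fold changes of 0.77, 0.67 and 0.46 (limma adjusted p = 2.5e-05, 3.34e-05 and 0.000204). Of 6 tested receptor genes, 4 were called higher and 1 lower (6 higher as deposited), and 3 of 5 higher without Lair1. The smallest p were those of the collagen receptor kinase gene Ddr1 at 0.97, the leukocyte receptor gene Lair1 at 0.96 and the uptake receptor gene Mrc2 at 0.47 (limma adjusted p = 0.000217, 0.000264 and 0.00109). Of 6 tested genes for breakdown and its inhibitors, 4 were called higher and 1 lower (5 and 0 as deposited). The membrane collagenase gene Mmp14 was at 0.88 and the inhibitor gene Timp1 at 1.23 (limma adjusted p = 3.86e-06 and 8.34e-05), while Timp3 was at -0.49 after scaling (limma adjusted p = 0.00108) and at 0.24 as deposited.

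Of 11 genes for laminins and other partners of type IV collagen, 1 was called higher, 2 lower and 8 not, with a median of -0.07 (11 higher as deposited, median 0.66). The laminin gene Lama5 was at 0.72 (limma adjusted p = 0.000595). Pxdn, the peroxidasin that cross-links type IV collagen, was at -0.25 and Lama4 at -0.19 (limma adjusted p = 0.024 and 0.0414), and both were higher as deposited, at 0.49 and 0.53.

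**Figure D5:**
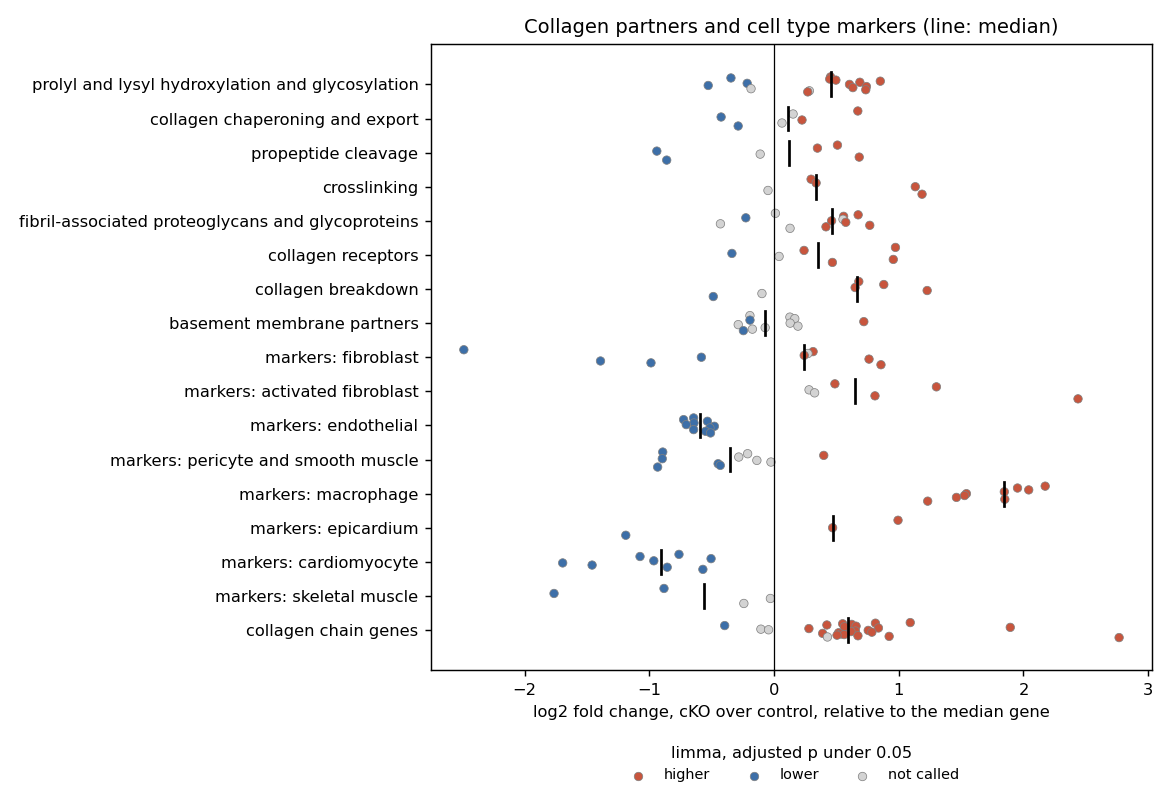
Log2 fold change of cKO over control relative to the median gene for each tested gene of the collagen partner lists, the marker lists with at least 3 tested genes and the collagen genes, coloured by call, with a line at each median. Crosslinking genes and collagen genes lie mostly right of 0, basement membrane partners lie around 0, and the 10 endothelial and 8 cardiomyocyte markers lie left of 0.

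Markers of several cell types differed between the groups as well, in both directions, and their part in the collagen results was not tested. Their counts stand beside 20.5% of all genes called higher and 20.5% lower (75.7% and 3.42% as deposited). In whole hearts, fewer cells of a type and less RNA per cell cannot be told apart. Of 9 tested fibroblast markers, 4 were called higher and 4 lower, and their summed scaled TPM was not higher in cKO (194 to 227) than in control hearts (206 to 243), with overlap. Without Gsn, the most abundant of these markers, the sums were lower in cKO (115 to 142) than in control hearts (148 to 168), without overlap. The fibroblast gene Tcf21 was at a log2 fold change of 0.86 and Pi16 at -1.39. Of 6 tested markers of activated fibroblasts, 4 were called higher and 0 lower, with sums of 555 to 828 and 401 to 511. Most of that sum was Acta2, a gene that smooth muscle expresses as well, and without it the sums were 65.8 to 97.4 and 35.7 to 41.3. The matrix gene Thbs4 went from 2.61 ± 0.663 to 18.8 ± 4.94 (SD, n = 5 each). All 9 tested macrophage markers were called higher, with sums of 336 to 488 and 99.2 to 114, and Fcgr1 among them was tested through its level in cKO hearts (8 of 8 without it).

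Endothelial markers were each called lower relative to the median gene (10 of 10, median -0.59), against 20.5% of all genes. None of the endothelial markers was called as deposited, where 75.7% of all genes were called higher and 3.42% lower. Endothelial marker sums were 732 to 1011 in cKO and 1283 to 1546 in control hearts. Of 10 pericyte and smooth muscle markers, 1 was called higher and 5 lower, with sums of 240 to 273 and 321 to 384. All 8 cardiomyocyte markers were present and called lower relative to the median gene, with sums of 18450 to 23776 and 34230 to 36956, and 1 was higher and 3 lower as deposited. Of 3 tested epicardial markers, 2 were called higher and 1 lower, with sums of 35.2 to 45.5 and 27.0 to 30.2. Aldh1a2 made up most of these sums. The sums without it were lower in cKO (5.66 to 8.81) than in control hearts (9.11 to 12.99), without overlap. Of 4 tested skeletal muscle markers, Ckm and Acta1, which heart muscle also expresses, were called lower and Mylpf and Tnnt3 were not called. Their list summed to 296 to 542 and 1207 to 1519, mostly from Ckm, and to 44.5 to 61.7 and 68.9 to 122 without it. The 1 tested Schwann cell marker and the 1 tested osteoblast marker were not called, with sums of 4.33 to 6.0 and 3.94 to 5.11, and of 14.9 to 50.3 and 9.82 to 28.9. All 7 skin and airway markers lay under the limit.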

How the data were processed

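Whole-heart RNA of 10 mice was sequenced from libraries made from 1 μg of total RNA, per the labels' protocols. The authors deposited 1 table of TPM, in which each library sums to 1000000. Per the submitters' processing notes, which state neither order nor role, the build was mm10 and the tools were STAR 2.7.1, HTSeq 0.11.2, DESeq2 1.22.2, Trimmomatic 0.32, bcl2fastq, FastQC 0.11.7 and Picard 1.96. No source used here gave the gene annotation, gene lengths or strand setting, so reads of antisense or overlapping genes may be mixed. Depth cannot be read from TPM. Groups and replicate numbers came from the sample titles, and no pair of libraries was identical.

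TPM was scaled by median-of-ratios size factors (16393 genes) and tested as log2(value + 1), which understates fold changes of low genes. Genes with a mean deposited TPM of at least 1 were tested (13391) with limma 3.58.1 in R 4.3.3 (moderated variance with a trend, two-sided, Benjamini-Hochberg over all genes tested, called at an adjusted p under 0.05). Genes under 1 were tested in a fit with no filter. Ratios were tested by exact permutation of the libraries, two-sided, over all splits. The fit was also run on simulated data with known changes and independent noise per gene, a simpler setting than these data. Other steps used pandas 2.3.3, scipy 1.17.1, numpy 2.4.6 and matplotlib 3.10.9 under Python 3.11.15. Coordinates are those of GRCm38 (mm10) in GENCODE M21, and all 44 genes matched by gene ID without its version.

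Members and lists were chosen with earlier results of these data known. Named were every collagen gene with a mean TPM of at least 1, the highest 3 under it, and up to 3 tested genes with the smallest p from each partner list. Other genes named were chosen after their values were seen. Alternatives were TPM as deposited, other scalings, pseudocounts, filters and variance models, library weights, a Ddx3y covariate, leaving out the cKO libraries with Xist, and leaving out each library. Counting genes with a mean of at least 1 in each group was added after seeing the data.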

Additional observations from a re-analysis of the deposited data

Results flagged for a closer look

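A value far from the other 4 of its group was looked for in each group of each of the 26 collagen genes, with Dixon's test. Of 52 groups, 5 held one, each in cKO hearts, and chance gives about 1 in 20. In cKO replicate 5, scaled TPM was 275 for Col1a1 (others 216 to 231), 197 for Col15a1 (others 168 to 172) and 11 for Col8a1 (others 8.04 to 8.83). In cKO replicate 7, Col4a2 was at 136 (others 183 to 201) and Col26a1 at 19.8 (others 14.9 to 16.3). Replicate 5 was the highest cKO heart for 13 of the 26 genes and replicate 7 for 7, and control replicate 4 was the lowest control heart for 15. The calls for Col1a1, Col15a1, Col8a1 and Col26a1 did not depend on leaving out any 1 library.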

How the results depend on the processing

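Of the 22 collagen genes called higher, 18 kept the call in each of the 22 alternatives that tested them. Col3a1 and Col5a3 lost it in 10 each, Col16a1 in 9 and Col6a3 in 2, and Col8a2 gained one in 8. As deposited, Col4a1 (0.63), Col4a2 (0.69) and Col18a1 (0.30) changed sign, since that scale raises the median gene. The count called higher (22) was 17 with a mean TPM of at least 5, where fewer genes are tested, and 25 as deposited, and 19 to 21 without any 1 library. The count called lower (1) was 0 as deposited, with mitochondrial genes left out of the total, with no filter, with a Ddx3y covariate and without the cKO libraries with Xist, and 0 to 1 without any 1 library. The cause was not tested. With 1 TPM added to both chains, Col8a1 over Col8a2 passed at 0.75 and Col12a1 over Col14a1 no longer did at 0.010. Without any 1 library, Col4a1 over Col4a2 was -0.10 to -0.042, and Col8a1 over Col8a2 was -0.17 (without control replicate 13) to 0.40. No paired analysis was run, since the labels name no pairs of mice across the groups. TPM carries no depth, so counting error of low genes such as Col11a1, Col4a3 and Col8a2 is unknown.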
